A study of Mus musculus with 4 samples.

Results

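Cells with mast cell proteases were chosen by a fixed gate on measured UMIs from single-cell RNA libraries of mouse hindlimb vessels. A cell entered when it held at least 5 UMIs (unique molecular identifiers, each standing for 1 captured transcript) of the granule protease genes Cma1, Mcpt4, Cpa3 and Tpsb2 together, no UMI of the basophil protease gene Mcpt8, and under 20 UMIs of the stromal gene Dcn per 10,000 UMIs of that cell. The gate took 216 of 5488 cells in the wild-type (WT) library and 71 of 3391 in the TNF-Tg library, 287 of 8879 cells in both. The series held 10837 cells in all 4 libraries. The WT library came from C57BL6 mice and the TNF-Tg library from mice of the same background that carry a human TNF transgene and develop chronic inflammatory-erosive arthritis, both labelled 9 months old, with 3 mice pooled into each library. Popliteal lymphatic vessels and the superficial saphenous vein were digested together and sorted for high scatter and viability (DAPI-), a gate meant to enrich smooth muscle cells. That sort can set the share of any cell type, and lymphatic and venous cells cannot be told apart. The other libraries, tdT1 and tdT2, held tdTomato+ cells of Cspg4-Cre;Ai9-tdTomato mice (3 pooled mice each) and are used only for comparison. Because there was 1 library per condition, no difference between WT and TNF-Tg had a replicate check and none was tested. Intervals below are exact 95% intervals that cover counting error only.

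Mast cells are tissue-resident granulocytes that settle along vessels and nerves, depend on stem cell factor and its receptor KIT, and store histamine, serotonin, heparin-bound proteases and cytokines in their granules. Connective tissue mast cells carry chymases (Cma1, Mcpt4), carboxypeptidase A3 (Cpa3) and tryptase (Tpsb2). They release these stores when allergen bridges IgE on the high-affinity receptor (Fcer1a, Ms4a2, Fcer1g) or when cationic peptides bind MRGPRB2. GATA2, MITF and TAL1 are among the transcription factors tied to their identity.

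Some of the gate genes, and the Mrgprb genes outside the gate, lie in loci of related genes. Cma1 and Mcpt4 belong to the chymase locus, where 9 genes of the annotation span chr14:55941451-56262260 (build GRCm38), the tryptase genes lie at chr17:25298394-25374442 and the Mrgprb genes at chr7:48444113-48558086. Reads of close relatives in these families may be split or lost by the counting, so values of Cma1, Mcpt4, Tpsb2, Tpsab1, Mrgprb1, Mrgprb2 and Mrgprx2 are uncertain as values of single genes. GATA2 binds 6-letter GATA sites, and 250 bases before the start of the leading genes were searched on both strands for the letters AGATAA and for the 3 forms of this site that differ in the first or the last letter, namely TGATAA (with the first letter changed), AGATAG (with the last changed) and TGATAG (with both changed). Of the 30 genes outside the gate that stood furthest above the other cells (described below), 26 had a RefSeq promoter and 16 of these (61.5%) held a match, against 29.7% of all 27025 genes with a promoter of that length. Counted over promoter entries, since a gene can have several, 17 of 39 (43.6%) held a match against 26.5% of 32851. The E-box letters CACATG or CACGTG were in 8 of the 39 entries (20.5%) against 17.6% of all, and by gene in 8 of 26 (30.8%) against 19.8%. A match of letters describes the window and does not show that a factor binds there. The windows of 2 gate genes and of 4 receptor genes are printed 5′ to 3′ on the gene's strand from RefSeq (GRCm38.p6), with GATA matches on either strand in capitals. They are Cpa3 (chr3:20242182-20242431, minus strand), Mcpt4 (chr14:56062311-56062560, minus), Ms4a2 (chr19:11623720-11623969, minus), Mrgprb1 (chr7:48456343-48456592, minus), Mrgprb2 (chr7:48558087-48558336, minus) and Kit (chr5:75574741-75574990, plus). The match nearest the start lay 46 bases before it in Cpa3, 103 in Mcpt4, 11 in Ms4a2, 106 in Mrgprb1 and 48 in Mrgprb2, and the Kit window held none.
Cpa3: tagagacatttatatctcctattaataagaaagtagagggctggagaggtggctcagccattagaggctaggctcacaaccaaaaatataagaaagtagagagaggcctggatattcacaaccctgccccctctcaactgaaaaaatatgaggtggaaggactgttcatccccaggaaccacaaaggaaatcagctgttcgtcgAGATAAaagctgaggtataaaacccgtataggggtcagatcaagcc
Mcpt4: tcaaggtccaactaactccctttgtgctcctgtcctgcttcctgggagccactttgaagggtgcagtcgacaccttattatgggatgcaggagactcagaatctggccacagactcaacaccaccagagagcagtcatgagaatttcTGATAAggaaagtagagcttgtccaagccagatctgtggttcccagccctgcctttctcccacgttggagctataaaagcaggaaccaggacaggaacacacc
Ms4a2: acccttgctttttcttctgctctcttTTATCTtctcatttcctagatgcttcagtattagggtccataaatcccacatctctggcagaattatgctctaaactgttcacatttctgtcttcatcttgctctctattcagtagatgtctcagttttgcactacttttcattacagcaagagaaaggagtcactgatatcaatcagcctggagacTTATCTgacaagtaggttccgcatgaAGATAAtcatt
Mrgprb1: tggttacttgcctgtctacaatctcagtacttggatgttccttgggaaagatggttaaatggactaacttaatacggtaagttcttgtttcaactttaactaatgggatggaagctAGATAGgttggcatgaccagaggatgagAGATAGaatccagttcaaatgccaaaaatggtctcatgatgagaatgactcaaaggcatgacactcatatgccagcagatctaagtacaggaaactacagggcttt
Mrgprb2: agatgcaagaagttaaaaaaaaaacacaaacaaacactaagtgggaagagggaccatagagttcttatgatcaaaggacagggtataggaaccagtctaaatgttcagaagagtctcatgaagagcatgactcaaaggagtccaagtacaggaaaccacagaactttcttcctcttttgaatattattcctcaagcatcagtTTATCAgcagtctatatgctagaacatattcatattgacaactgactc
Kit: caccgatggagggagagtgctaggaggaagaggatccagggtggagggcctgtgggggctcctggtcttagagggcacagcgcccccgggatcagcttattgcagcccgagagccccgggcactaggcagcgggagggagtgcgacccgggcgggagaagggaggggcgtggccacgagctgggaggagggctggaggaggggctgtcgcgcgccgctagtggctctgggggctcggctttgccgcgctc

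The gate held cells of very different kinds. Libraries had a median of 12660 UMIs per cell in WT and 10605 in TNF-Tg, and the gated cells a median of 2839 and 7293. When protease UMIs were set against the depth of the cell, 113 WT and 17 TNF-Tg cells reached 50 per 10,000 and are called protease-rich here. The other 103 WT and 54 TNF-Tg cells, called protease-poor, had passed the gate with a median of 6 protease UMIs among 11194 and 9803 UMIs. Protease-rich cells were shallow, with a median of 1018 UMIs in WT (range 513 to 7618) and 896 in TNF-Tg (range 528 to 2100). They held a median of 72 and 82 protease UMIs and a median protease share of 7.07% and 11.1% of the cell's UMIs. Their median mitochondrial share was 5.31% and 4.26%, and 16 WT cells and 1 TNF-Tg cell exceeded 10%.

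**Figure D1:**
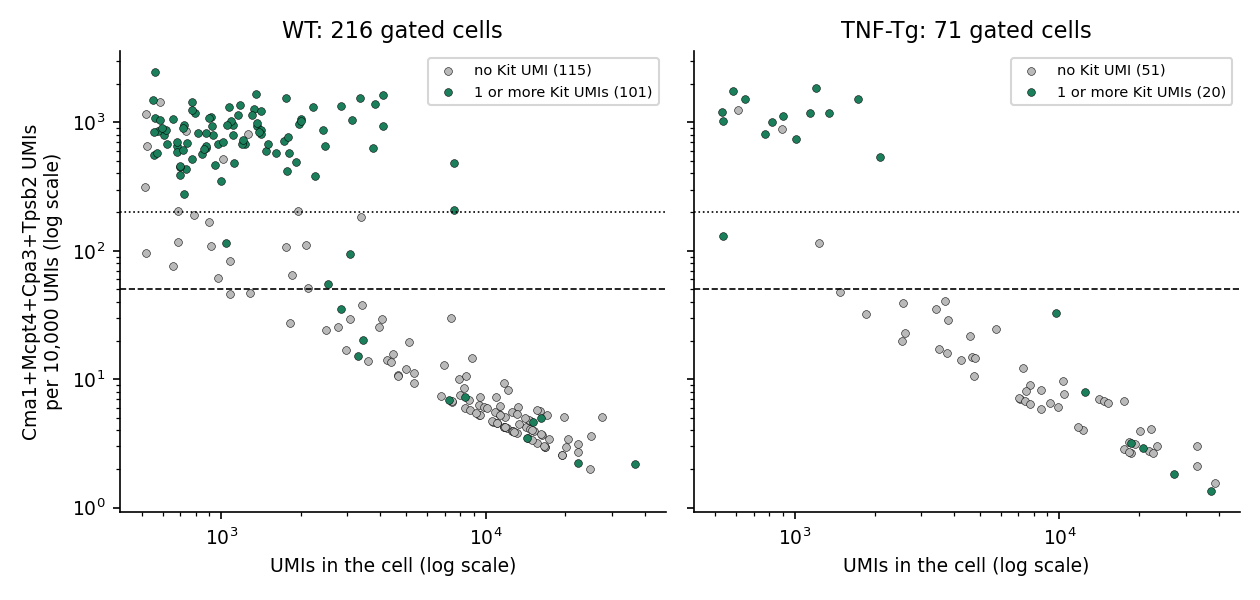
Each point is a gated cell, with its total UMIs on the x axis and the UMIs of Cma1, Mcpt4, Cpa3 and Tpsb2 per 10,000 UMIs on the y axis (both log scales), green where the cell held a Kit UMI. The dashed line is 50 and the dotted line 200 per 10,000, and cells with Kit gather above the dotted line at few UMIs in both libraries.

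The protease-poor cells held far fewer protease UMIs for their depth. Protease UMIs summed to 735 per 10,000 over the WT protease-rich cells and 1031 in TNF-Tg, 5.88 and 6.11 over the protease-poor cells, and 1.10 and 0.497 over stromal cells (Dcn at 20 or more per 10,000), which had no minimum of protease UMIs to pass. The gate had no gap at its edge, since 105 WT cells held 4 protease UMIs and 42 held 5, and 35 TNF-Tg cells held 4 and 14 held 5. Among protease-poor cells, 68 in WT and 15 in TNF-Tg held at least 3 UMIs of the macrophage complement genes C1qa, C1qb and C1qc, and 11 and 8 held as many of S100a8 and S100a9, which neutrophils and monocytes express. Scrublet marked 2 WT and 4 TNF-Tg gated cells as doublets, all of them protease-poor, out of 137 and 74 in the libraries. The WT and TNF-Tg libraries shared 2 cell barcodes, 1 of them on a gated cell.

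Kit, which the gate did not use, separated these sets. A Kit UMI was seen in 46.8% of gated WT cells (interval 40 to 53.6), while gated TNF-Tg cells held one in 28.2% (18.1 to 40.1). In protease-rich cells the shares were 80.5% (72.0 to 87.4) and 82.4% (56.6 to 96.2), and in protease-poor cells 9.71% and 11.1%. Stromal cells, which should lack the gene, held a Kit UMI in 3.60% (WT) and 0.516% (TNF-Tg) at median depths of 14766 and 11855 UMIs. With every cell thinned to 500 UMIs, protease-rich cells still held Kit in 62.8% (WT) and 76.5% (TNF-Tg), against 0.971% and 1.85% of protease-poor cells. Mrgprb1, a receptor gene of connective tissue mast cells, was seen in 72.6% and 94.1% of protease-rich cells and in 2.91% and 5.56% of protease-poor cells. Hdc, which makes histamine, was seen in 79.6% and 88.2%, against 20.4% and 14.8% of protease-poor and 4.07% and 1.03% of stromal cells. Il1rl1 was seen in 56.6% and 64.7% of protease-rich, 22.3% and 16.7% of protease-poor, and 1.80% and 0.344% of stromal cells. The label of mast cells therefore held for the protease-rich cells at 200 or more protease UMIs per 10,000 (97 in WT and 15 in TNF-Tg). It did not hold for the 16 WT cells between 50 and 200, of which 3 held Kit and 9 held 3 or more C1q UMIs, nor for the protease-poor cells, which are given no name.

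**Figure D2:**
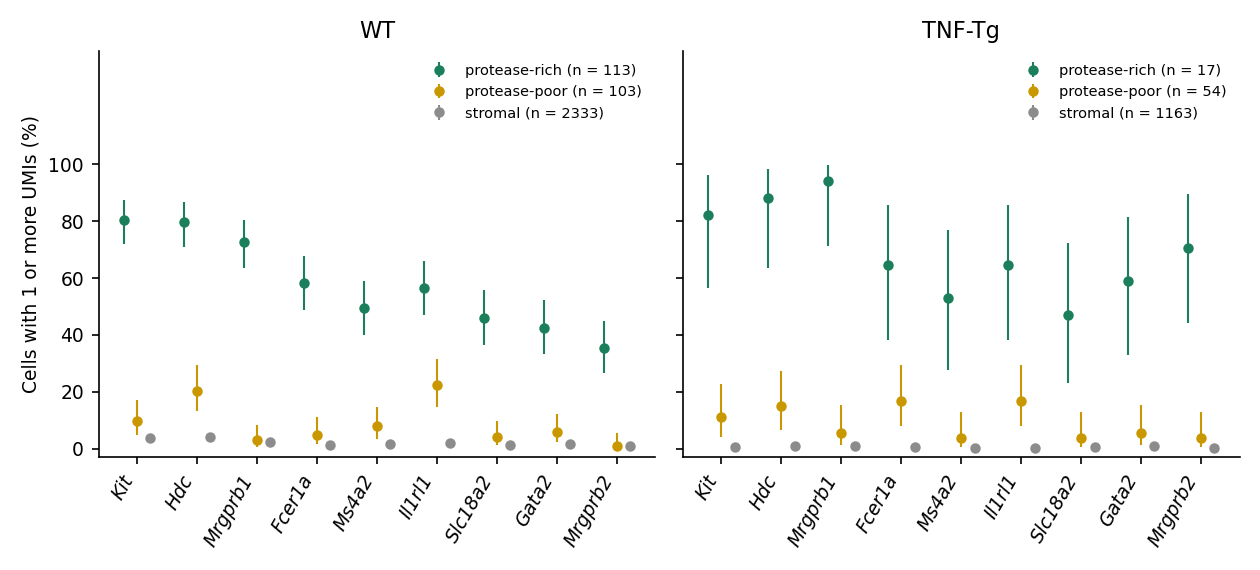
The y axis gives the percentage of cells with 1 or more UMIs of each gene on the x axis, with exact 95% intervals, in protease-rich, protease-poor and stromal cells of WT (left) and TNF-Tg (right). Kit was seen in 80.5% and 82.4% of protease-rich cells, and all 9 genes were seen more often there than in protease-poor or stromal cells.

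Among the WT protease-rich cells, 91 held Kit and 22 did not. Those with Kit had a median of 814 protease UMIs per 10,000, and 86 of the 91 also held Mrgprb1 or Hdc. Those without Kit had a median of 175, 13 of the 22 lay under 200 per 10,000, 16 held Mrgprb1 or Hdc, and 8 held 3 or more C1q or S100a8 and S100a9 UMIs. In TNF-Tg, 3 protease-rich cells lacked Kit and all 3 held both Mrgprb1 and Hdc. Between 50 and 200 per 10,000, Kit was seen in 3 of 16 (WT) and 1 of 2 (TNF-Tg), and at 200 or more in 90.7% of 97 and 86.7% of 15. The condition on Dcn kept out 19 further WT cells at the protease-rich level, 10 of them with Kit, and 3 TNF-Tg cells, none with Kit. The condition on Mcpt8 kept out 3 WT and 2 TNF-Tg cells of that level, 2 with Kit in each library.

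Protease-rich cells took a smaller share of the TNF-Tg library. All gated cells made up 3.94% of WT (3.44 to 4.48) and 2.09% of TNF-Tg (1.64 to 2.63). Protease-rich cells made up 2.06% (1.70 to 2.47) and 0.501% (0.292 to 0.801), a WT share 4.11 times that of TNF-Tg (2.45 to 7.30). At 200 or more per 10,000, 97 WT and 15 TNF-Tg cells, the interval of this ratio was 2.31 to 7.41. Shares of a library add up to a fixed total, and macrophages numbered 1759 in WT and 417 in TNF-Tg, so cell numbers per vessel cannot be read from them. In the reporter-sorted libraries the gate took 8 of 1504 cells of tdT1 (0.532%) and 2 of 454 of tdT2, and all 10 were protease-rich and held Kit.

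The 4 proteases kept the same order of UMI shares in the protease-rich cells of WT, TNF-Tg and tdT1. Of the protease UMIs in WT protease-rich cells, 42.2% were Mcpt4, 32.9% Cma1, 15.0% Cpa3 and 9.89% Tpsb2. In TNF-Tg they were 40.2%, 26.1%, 18.7% and 14.9%, so Tpsb2 and Cpa3 took more and Cma1 less of the total than in WT. In tdT1 they were 41.9%, 29.7%, 15.6% and 12.8%. Over stromal cells the mix was 45.3% Mcpt4, 29.8% Cma1, 12.0% Cpa3 and 12.8% Tpsb2 in WT. In TNF-Tg stromal cells it was 45.7%, 34.5%, 7.74% and 12.1%, with more Cma1 and less Cpa3 than in the protease-rich cells of that library. These genes chose the cells, so their mix is a description.

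Across genes outside the gate, the protease-rich cells carried the mast cell programme in both libraries. UMIs were summed over the cells of a set and given as CPM, the UMIs of a gene per 1000000 UMIs of the set, and a gene was compared where WT and TNF-Tg together held at least 20 UMIs of it in the set. Of 1255 genes compared, 131 (10.4%) lay at least 4-fold above all other cells of the same library in WT and in TNF-Tg. In tdT1, a library not used for that count, 109 of the 131 (83.2%) were also at least 4-fold higher in its protease-rich cells, against 211 of the 1249 compared genes listed there (16.9%). Genes entered by their UMIs in the protease-rich cells, so the filter favoured genes high there and partly sets how many passed. All 8 mast cell markers outside the gate that could be compared were among the 131, namely Kit, Hdc, Ms4a2, Fcer1a, Mrgprb1, Mrgprb2, Gata2 and Slc18a2. Their list of 9 summed over protease-rich cells to 10117 CPM in WT and to 17212 in TNF-Tg. Over the cells outside the gate it summed to 54.8 and 61.9 CPM. Over all gated cells, only 44 of 7562 genes (0.582%) passed the same 4-fold rule, while at 200 or more per 10,000 it was 129 of 1076 (12.0%), and protease-poor cells gave 88.0% of the gated UMIs in WT and 97.6% in TNF-Tg.

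**Figure D3:**
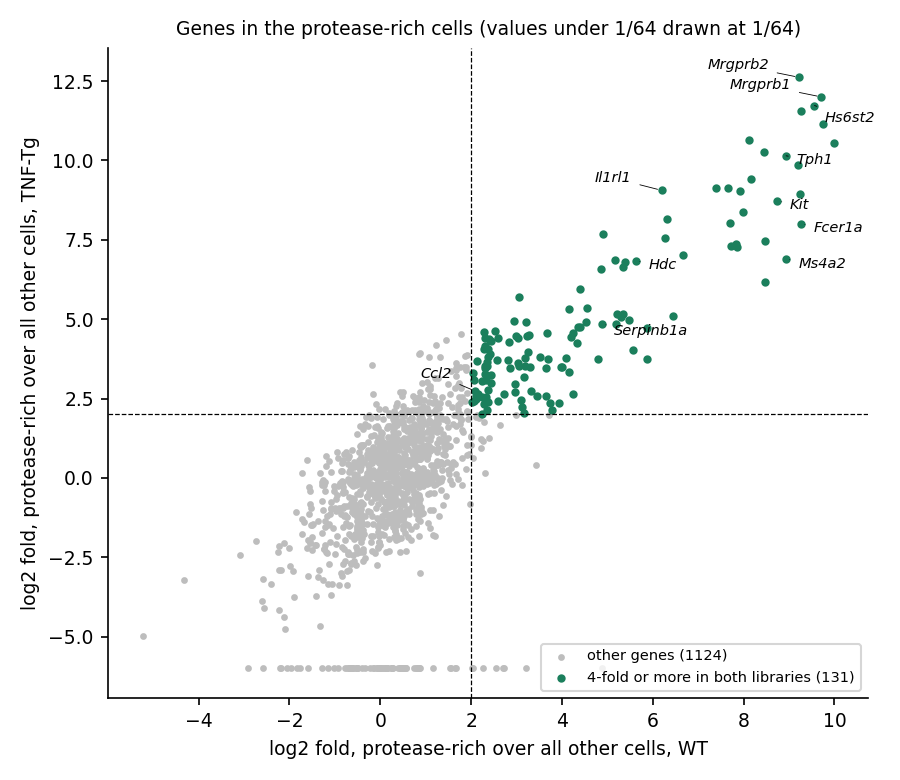
Each of 1255 genes is placed by its log2 fold in protease-rich cells over all other cells in WT (x axis) and in TNF-Tg (y axis), with dashed lines at 4-fold and green points for the 131 genes past both. Mrgprb1, Mrgprb2, Hs6st2 and Kit lie far out in both libraries, while Ccl2 lies just past the WT line.

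Surface receptors were among the genes furthest above the other cells. Mrgprb1 held 277 UMIs in WT (1731 CPM) and 67 in TNF-Tg (4046 CPM), 836-fold and 4106-fold above the other cells. Mrgprb2, the receptor for basic secretagogues, held 82 and 25 UMIs (512 and 1510 CPM). Mrgprx2 of the same family held 33 and 8 UMIs. Kit itself held 451 UMIs in WT (2818 CPM) and 52 in TNF-Tg (3140 CPM), 430-fold and 423-fold above the other cells. Both IgE receptor chains that are restricted to mast cells and basophils were there, Fcer1a with 176 and 30 UMIs (1100 and 1812 CPM) and Ms4a2 with 101 and 14 (631 and 846 CPM). The chain shared with macrophages, Fcer1g, was 3.25-fold above the other cells in WT and 0.978-fold in TNF-Tg. Il1rl1, which encodes the IL-33 receptor ST2, held 172 and 44 UMIs (1075 and 2657 CPM). In all, 9 of the 14 receptor genes compared, of 32 listed, passed 4-fold in both libraries, against 10.4% of all genes compared. Among the 9 were Adora3, an adenosine receptor, and Csf2rb and Csf2rb2, signalling chains for IL-3 family cytokines. Tlr2 and Tlr4 held 2 UMIs each in WT and 0 in TNF-Tg.

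Of granule and amine genes, 7 of 8 compared (13 listed) passed 4-fold in both libraries, against 10.4% of all genes compared. Hdc held 317 UMIs in WT (1981 CPM) and 60 in TNF-Tg (3624 CPM), 49.4-fold and 114-fold above the other cells. The serotonin genes were all present: Tph1, which makes serotonin, with 40 and 10 UMIs, Slc6a4, which takes it up, with 120 and 14, and Slc18a2, which loads amines into granules, with 109 and 14. Srgn, the proteoglycan core of granules, held 476 and 40 UMIs and stood 8.57-fold and 5.52-fold above the other cells. Ndst2, needed for heparin sulphation, and Hs6st2, a heparan 6-O-sulphotransferase outside the list, held 56 and 104 UMIs in WT and 6 and 9 in TNF-Tg. Of proteases outside the gate, 1 of 3 compared (12 listed) passed 4-fold, Tpsg1 (38 and 7 UMIs). The list summed to 1337 CPM in WT and 2959 in TNF-Tg, and to 1586 and 1266 CPM over the cells outside the gate. It included the cathepsin genes Ctsd, Ctsl and Ctsz, so these sums do not measure mast cell granule proteases alone. The list of 4 mucosal mast cell markers summed to 19 UMIs in the WT protease-rich cells and 5 in TNF-Tg (119 and 302 CPM). Over the cells outside the gate it summed to 39.2 and 80.3 CPM. The 1 marker compared did not pass 4-fold in both libraries, and its log2 ratio of TNF-Tg over WT was 1.19. In the protease-rich cells, the mucosal proteases Mcpt1 and Mcpt9 were at 0 in both libraries, and Mcpt2 held 2 UMIs in WT and 1 in TNF-Tg.

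Of transcription factors, 4 of 6 compared (19 listed) passed 4-fold in both libraries, against 10.4% of all genes compared. Gata2 held 95 UMIs in WT (594 CPM) and 18 in TNF-Tg (1087 CPM), Tal1 held 34 and 3, Meis2 44 and 4, and Hes1, a Notch target, 80 and 19. Mitf was 3.47-fold higher in WT and 5.90-fold in TNF-Tg, on 22 and 2 UMIs. Gata1 held 5 and 2 UMIs. In signalling and secretion, 4 of 9 compared (25 listed) passed, Rab27b, which docks granules (75 and 17 UMIs), Inpp5d, a phosphatase that restrains IgE signals (62 and 7), the adaptor Lat2 (53 and 14) and the fusion protein Stx3 (23 and 5). The kinases Lyn and Syk did not, Lyn at 2.75-fold and 1.41-fold and Syk at 1.04-fold and 2.18-fold. Of adhesion genes 1 of 6 compared passed, near the 10.4% of all genes, namely Cadm1 (43 and 4 UMIs), which binds mast cells to nerves and fibroblasts.

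The listed cytokine, chemokine and growth factor genes summed to 1201 CPM in WT and 1816 in TNF-Tg over the cells outside the gate. Over the protease-poor cells they summed to 2486 and 1949 CPM, and over the protease-rich cells to 2343 and 5133 CPM. Il4 held 41 UMIs in WT and 7 in TNF-Tg, 101-fold and 130-fold above the other cells. Ccl2, a monocyte chemoattractant, held 184 UMIs (1150 CPM) and 47 UMIs (2839 CPM), 4.22-fold and 6.69-fold. These were the 2 of 5 compared, of 20 listed, that passed, against 10.4% of all genes compared. Il13 held 1 UMI in WT, Il3, Il5 and Il6 held none in either library, and mouse Tnf held 12 and 6, a count that does not measure the human transgene. At this depth a zero does not show that a gene is off. Of the eicosanoid genes, Hpgds, which makes prostaglandin D2, held 36 UMIs in WT (225 CPM) and 11 in TNF-Tg (664 CPM) and was the 1 of 2 compared that passed. Cyp11a1, the first enzyme of steroid synthesis, held 68 and 19 UMIs, 228-fold and 164-fold above the other cells, and Serpinb1a, an inhibitor of granule proteases, 190 and 32. Cyp11a1, Il4, Cd200r3 and Itga2 are also basophil markers.

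Between the libraries, protease-rich cells were compared on 160027 UMIs of 113 WT cells and 16558 UMIs of 17 TNF-Tg cells. TNF-Tg lay at least 2-fold above WT in 162 of 1255 genes (12.9%) and 2-fold below in 228 (18.2%), and the interval of the ratio left out no change for 58 and 70 of these. Genes entered by their UMIs over both libraries, most of which came from WT, so a gene at 0 in TNF-Tg entered at a lower level than a gene at 0 in WT, and this filter partly sets the balance of lower over higher genes. Scaled without the gate proteases, mitochondrial and ribosomal protein genes, the counts were 127 above and 272 below (31.8% above, against 41.5%), and without the cells holding C1q or S100a8 and S100a9 they were 93 above and 167 below, of 947 genes. Among cells at 200 or more per 10,000 the shares were 11.9% and 19.7% of 1076 genes. In 76 of the 1255 genes 1 library was at 0 and was set at 3 UMIs. Where that bound fell on the other side of no change, the log2 ratio was set to 0. A gene at 0 in TNF-Tg thus counted as 2-fold lower only where 3 UMIs would also have been 2-fold lower. With these set values included, the median log2 ratio over all 1255 was 0.00. It was -0.09 under the scaling without gate proteases, mitochondrial and ribosomal protein genes, and -0.02 at 200 or more per 10,000. No gene can be called changed from 1 library each, and the ratios compare these 2 libraries, not the conditions.

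Of the receptor genes 4 of 14 compared were 2-fold above WT in the TNF-Tg cells, and of the granule and amine genes 2 of 8. Over all genes compared the share was 12.9%. Mrgprb1 was 2.34 times the WT level (1.76 to 3.06), Mrgprb2 2.95 times (1.80 to 4.66) and Il1rl1 2.47 times (1.73 to 3.46). Hdc was 1.83 times (1.36 to 2.42), Fcer1a 1.65 times (1.08 to 2.44) and Gata2 1.83 times (1.04 to 3.05). These ratios compare shares of all UMIs, of which ribosomal protein genes took 19.3% in WT and 11.3% in TNF-Tg. Bounds close to no change, such as those of Fcer1a and Gata2, therefore depend on the scaling. Kit, at 1.11 times (0.82 to 1.49), and Ms4a2, at 1.34 times (0.71 to 2.35), had intervals that held no change. Slc18a2 was 1.24 times (0.66 to 2.17) and Slc6a4 1.13 times (0.60 to 1.97). No receptor gene compared was 2-fold lower, and the median log2 ratio of that list was 0.57, while over the mast cell markers 2 of 8 were 2-fold higher and 0 lower, with a median of 0.80. Ccl2 was 2.47 times the WT level (1.75 to 3.42) and Hpgds 2.95 times (1.36 to 5.93).

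Of the genes furthest above WT by the named rule, Sgk1, a kinase induced by glucocorticoids, held 29 UMIs in WT (181 CPM) and 17 in TNF-Tg (1027 CPM), 5.67 times the WT level (2.92 to 10.7). Egr1 held 148 and 61 UMIs (925 and 3684 CPM), 3.98 times (2.91 to 5.40), and Ier2 51 and 21 UMIs, also 3.98 times (2.27 to 6.73). Id2, an inhibitor of basic helix-loop-helix factors, was 3.07 times and Junb 2.66 times the WT level. Of the 9 stress and immediate early genes compared, 4 were 2-fold higher, Egr1, Ier2, Junb and Zfp36, and 0 lower, against 12.9% and 18.2% of all genes, while Jun was 0.958 times (0.602 to 1.46) and Dusp1 0.549 times (0.258 to 1.03) the WT level. The median share of a cell's UMIs in the 13 listed genes was 0.937% in WT and 1.79% in TNF-Tg protease-rich cells, and the order was the other way in protease-poor cells (0.829% and 0.429%), stromal cells (0.511% and 0.391%) and macrophages (0.926% and 0.604%). Of the 3 NF-kB response genes compared, Nfkbiz was 2-fold higher and Tnfaip3, on 44 and 2 UMIs, 2-fold lower.

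**Figure D4:**
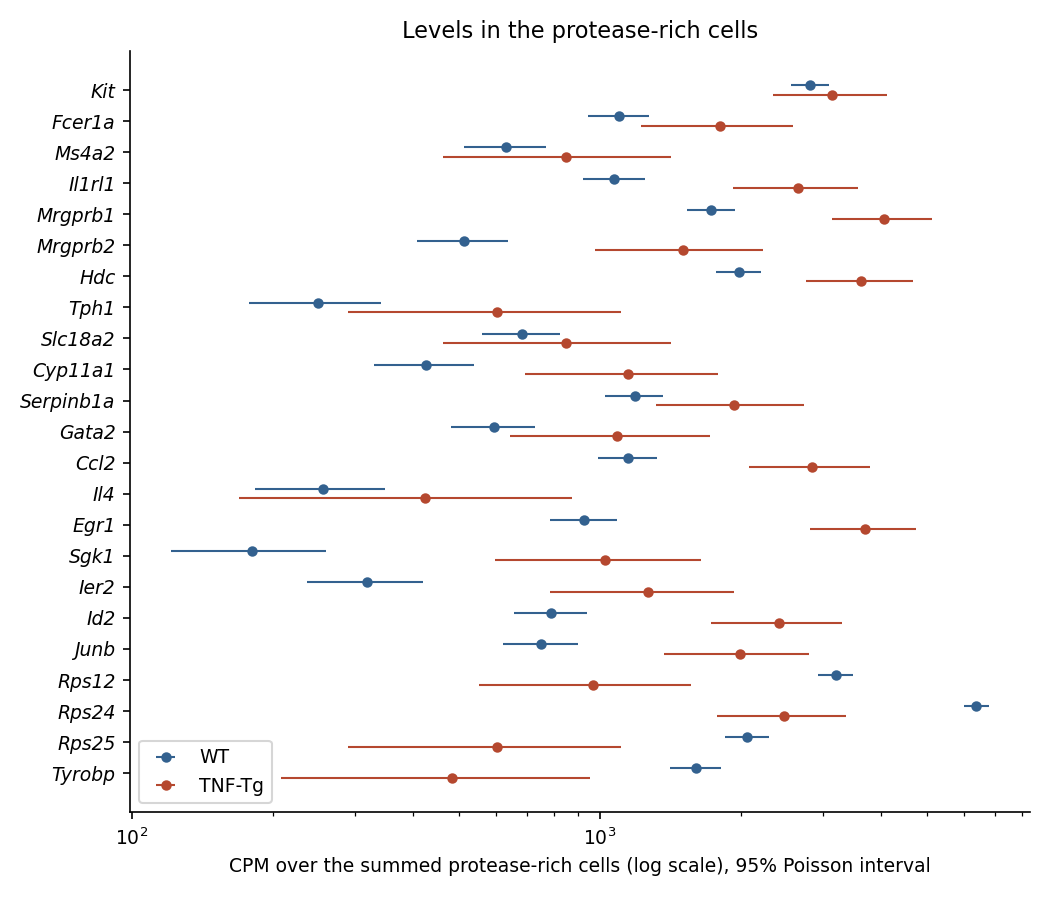
Points give CPM (log scale) over the summed protease-rich cells of WT and TNF-Tg for 23 genes, with exact 95% Poisson intervals. Intervals for Kit overlap at 2818 and 3140 CPM, those for Mrgprb1 and Egr1 lie apart with TNF-Tg higher, and those for Rps12 and Rps24 lie apart with WT higher.

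Ribosomal protein genes lay lower in the TNF-Tg cells. Rps12 held 511 UMIs in WT (3193 CPM) and 16 in TNF-Tg (966 CPM), 0.303 times the WT level, and of the 10 genes furthest below WT by the named rule 9 encoded ribosomal proteins. Of 81 ribosomal protein genes compared, 41 were 2-fold lower and 0 were 2-fold higher, against 18.2% and 12.9% of all genes compared, with a median log2 ratio of -1.01. Their UMIs summed to 19.3% of protease-rich UMIs in WT and 11.3% in TNF-Tg, a ratio of 0.583 (0.556 to 0.611). By cell, the median share was 18.9% in WT (range 1.25 to 47.9) and 11.2% in TNF-Tg (range 0.859 to 27.1), so the ranges overlapped. Among cells under 1000 UMIs the medians were 19.0% in 55 WT cells and 11.8% in 10 TNF-Tg cells, and among deeper cells 17.5% in 58 and 9.79% in 7. The order was the other way in the protease-poor cells, at 18.6% and 26.0%, in stromal cells, at 20.8% and 23.1%, and in macrophages, at 15.4% and 17.5%. In the 8 protease-rich cells of tdT1, whose labels name no TNF transgene, the median was 9.82%, and in the 951 stromal cells of tdT1 it was 14.5%, also under the 20.8% of WT stromal cells. Mitochondrially encoded genes took 5.73% and 5.34% of the summed UMIs, and 5.31% and 3.36% at 200 or more per 10,000, which leaves out 1 TNF-Tg cell at 52.2% and 3 WT cells at 47.6%, 55.8% and 56.7%.

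**Figure D5:**
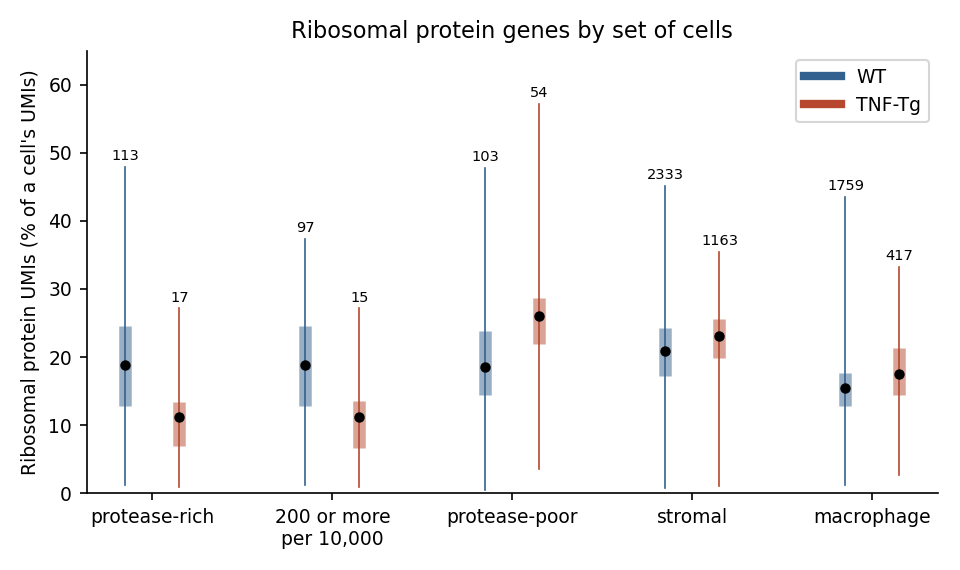
The y axis gives the percentage of a cell's UMIs in 86 ribosomal protein genes, for 5 sets of cells on the x axis in WT and TNF-Tg. Dots are medians, bars the middle quartiles, lines the full range and numbers the cells, and TNF-Tg lies lower in the protease-rich sets (18.9% and 11.2%) and higher in the other 3.

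Macrophage and neutrophil transcripts also differed between the protease-rich sets. In WT, 17 of 113 cells held 3 or more UMIs of C1qa, C1qb and C1qc or of S100a8 and S100a9, and in TNF-Tg 1 of 17 did. All 7 macrophage markers were detected in WT, summing to 2718 CPM, and 5 of 7 in TNF-Tg, summing to 906 CPM. The 7 markers summed to 6677 and 2227 CPM over the cells outside the gate. In the protease-rich cells, C1qb was the most abundant of these markers in WT, with 107 UMIs, and C1qc and Cd163 were at 0 in TNF-Tg. S100a9 held 280 UMIs in WT and 0 in TNF-Tg, and S100a8 223 and 0. Of these 503 UMIs in WT, 493 lay in 4 of the 113 cells, 292 of them in 1 cell. Tyrobp, a myeloid adaptor, was the 1 gene among the 10 furthest below WT that was not ribosomal, on 257 and 8 UMIs. With the cells holding C1q or S100a8 and S100a9 left out, the log2 ratio of TNF-Tg over WT was 0.98 for Mrgprb1 (1.23 with all cells), 1.14 for Il1rl1 (1.31), 2.10 for Egr1 (1.99), -1.67 for Rps12 (-1.72) and -1.34 for Tyrobp (-1.73). Stromal markers summed to 23 UMIs in WT and 2 in TNF-Tg.

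Cycling transcripts were found in the WT protease-rich cells. Mki67 or Top2a, which mark dividing cells, were seen in 7 of 113, and 6 of these held 3 or more such UMIs, at 798 to 4086 UMIs per cell and 1 to 15 Kit UMIs. Of the 6, 1 lay under 200 protease UMIs per 10,000. In TNF-Tg they were seen in 0 of 17 cells with a median of 896 UMIs, where 3 cells would be 17.6%. A count of 0 at that depth limits cells with such a UMI, not dividing cells, and a difference from WT was not detectable.

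When all gated cells were pooled, the order of several mast cell genes turned. Kit was 0.306 times the WT level in TNF-Tg (349 and 107 CPM), Mrgprb1 0.482 times and Fcer1a 0.448 times, against 1.11, 2.34 and 1.65 times within the protease-rich cells. The pooled values are shares of all gated UMIs, of which protease-rich cells gave 12.0% in WT and 2.36% in TNF-Tg. Across the pooled cells TNF-Tg was at least 2-fold above WT in 404 genes (5.34%) and below in 1133 (15.0%), and the genes furthest apart came from cells of other kinds. Fabp4 (7 and 126 UMIs) and Treml4 (2 and 48), higher in TNF-Tg, held no UMI in protease-rich cells of either library. Hbb-bs, a haemoglobin gene, held 6234 UMIs in WT and 9 in TNF-Tg over all gated cells, and 1 and 0 in the protease-rich cells. Among the protease-poor WT cells 1 held 11322 UMIs over only 155 genes, so the Hbb-bs UMIs may lie in few cells.

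Cells with at least 5 UMIs of the basophil protease gene Mcpt8 numbered 30 in TNF-Tg and 1 in WT, and the gate kept them apart. They shared Ms4a2 with the TNF-Tg protease-rich cells (149 against 14 UMIs, 943 and 846 CPM) and Gata2 (804 and 1087 CPM), with ratios whose intervals held no difference. Mrgprb1 held 67 UMIs in the protease-rich cells and 0 in the Mcpt8 cells, at least 213-fold higher against a floor of 3 UMIs over the set. Kit was 21.6-fold higher (13.0 to 36.9), Il1rl1 35-fold (18.2 to 72.7) and Ccl2 64-fold (28.8 to 168) in the protease-rich cells. The Mcpt8 cells held 1389 UMIs of Ccl3 and 1103 of Ifitm1 where the protease-rich cells held 0, and 1733 of Ccl4 where they held 3. Of their protease UMIs 92.7% were Cpa3. These sets come from 1 library, so their difference has no replicate check either.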

How the data were processed

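The deposited matrices hold raw UMI counts per gene and cell, made by the authors with Cell Ranger (matrix headers 3.1.0 for tdT1 and 6.0.1 for the other libraries) against mm10. The submitters' processing notes also name Seurat 4.0.3, whose output was not used here. Totals were 68773605 UMIs in WT and 37557627 in TNF-Tg. The members and gene lists were chosen with earlier results of these data known. Counts of the gated, protease-rich, protease-poor, stromal and macrophage cells were summed within a library and scaled to CPM (Python 3.11.15, numpy 2.4.6, pandas 2.3.3, scipy 1.17.1). Macrophages are cells with C1qa, C1qb and C1qc at 20 or more per 10,000 and Dcn below that. No cell was removed for depth or mitochondrial share. Doublets were called with Scrublet in scanpy 1.11.5 and kept. The level of 50 protease UMIs per 10,000 was set as an alternative gate, and 200 was added after the data were seen. Named genes, besides the lists, were the 30 with the highest lower fold of the WT and TNF-Tg folds and 10 each way between libraries, ranked by the interval bound nearest no change, with UMIs in at least 5 cells. Intervals are Clopper-Pearson for shares, Poisson for CPM and conditional binomial for ratios. UMI calls limit but do not remove amplification error. Code was tested on simulated data.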

Additional observations from a re-analysis of the deposited data

How the results depend on the processing

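No paired analysis was possible because there was 1 library per condition, and no replicate could be left out. Of results set against alternatives, 41 summary values stayed within the limits used and 39 moved. Among single-gene values, 908 stayed, 30 gained or lost the 2-fold call between libraries, 22 fell below 4-fold and 9 reversed. Genes with too few UMIs to be compared under an alternative were left out of these counts. The log2 ratio of shares, TNF-Tg over WT, was -0.91, and -1.93 with at least 20 protease UMIs, -2.04 at 50 per 10,000 and -2.00 at 200 per 10,000. Median UMIs per gated WT cell, 2839, became 1118 with at least 10 protease UMIs, 1069 with 20, 1018 at 50 per 10,000, 1017 at 200 per 10,000, 6942 with no condition on Dcn and 5380.5 without cells over 10% mitochondrial or under 500 genes. In TNF-Tg, 7293 became 1913.5, 896.5, 896 and 896 under the first 4 of these. The percentage of gated WT cells with Kit, 46.8%, became 77.3, 89.9, 80.5 and 90.7 under the same 4, 36.8 with no condition on Dcn, 39.0 after the quality filter, and 31.1 and 36.1 in cells thinned to 1000 and 500 UMIs. In TNF-Tg, 28.2% became 50, 87.5, 82.4 and 86.7, and 13.1 at 1000 UMIs. Genes 4-fold higher in gated cells, 44, became 132 with at least 20 protease UMIs (32 of the 44 among them), 131 at 50 and 129 at 200 per 10,000 (31 each), 70 with Mcpt8 cells kept, 92 with cells weighted equally and 878 against stromal cells alone. The 131 of protease-rich cells became 215 against stromal cells (119 shared), and their 390 genes 2-fold apart became 260 without cells holding C1q or S100a8 and S100a9 (223 shared), where the log2 ratio of Mrgprb1 was 0.98, under 2-fold. Genes 2-fold apart in all gated cells, 1537, became 985 with at least 10 protease UMIs, 342 with 20, 390 at 50 and 340 at 200 per 10,000, 2379 with cells weighted equally and 923 with at least 40 UMIs a gene. Of those 1537, 26.3% were higher in TNF-Tg. The share was 42.1%, 40.6%, 41.5% and 37.6% under the 4 stricter gates, 39.6% with equal weights and 40.2% after scaling by the median ratio. The log2 ratio over all gated cells turned positive for Fcer1a (0.055 with at least 20 protease UMIs, 0.72 at 50 and 0.67 at 200 per 10,000, 0.17 with Mcpt8 cells kept), Mrgprb1 (0.56, 1.23 and 1.15 under the first 3) and Kit (0.16 and 0.078 at 50 and 200). Depth limits single-gene values in TNF-Tg, where 17 protease-rich cells gave 16558 UMIs.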

Other observations

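Some genes outside the fixed lists stood above the other cells in both sets of protease-rich cells. Slc45a3, a solute carrier, held 50 UMIs in WT and 10 in TNF-Tg, 200-fold and 567-fold above the other cells. Slc7a5, an amino acid transporter, held 40 and 5, Padi2, which converts arginine to citrulline, 40 and 7, and Gpr141b, an orphan receptor, 55 and 7. Olfr920, annotated as an olfactory receptor, held 21 UMIs in 13 WT cells and 8 in 6 TNF-Tg cells, 29.9-fold and 204-fold above the other cells.

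Among all gated cells, Top2a held 100 UMIs in WT, 26 of them in protease-rich cells, and 0 in TNF-Tg. Ccl8, a chemokine gene, held 9509 UMIs in WT and 581 in TNF-Tg, of which 410 and 1 lay in protease-rich cells. Cd7 held 25 and 134 UMIs, none of them in protease-rich cells.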
